A study of Danio rerio with 12 samples.

Results

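The genes described here are the very long genes of the zebrafish brain, whose exons spread over more than 250000 bases of genome. They were chosen from the 32057 genes of the count table by 3 conditions: a genomic span (from the first to the last exonic base) over 250000 bases, a place outside the 20 Mb window centred on *psen2* on chromosome 1, and more than 1.5 CPM (read counts scaled to a common library total) in at least 4 of the 12 fish. Of 281 genes with such a span, 2 lay inside the window and 29 did not reach the level required, leaving 250 long genes among 16021 genes tested. Of these 250 genes, 245 exceeded 1.5 CPM in all 12 fish, and each of the other 5 did so in fish of both the wild type and the mutant side. The condition on level is the only measured value in the choice. The 29 long genes under it had a median highest value of 0.197 CPM in any fish, and 6 of them had no count.

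Whole brains of 12 female zebrafish, all 6 months old, were sequenced with 1 RNA-seq library per fish. All were siblings from a single mating and shared a tank. The extraction text of the labels speaks of larvae, while the tissue label and the study's methods give whole brain. Neuronal and glial marker genes were abundant in all 12 fish, which alone cannot tell brain from whole larvae. The groups were 4 WT fish (*psen2* +/+), 4 Het fish (*psen2S4Ter*/+) and 4 Hom fish (*psen2S4Ter*/*psen2S4Ter*), where S4Ter is a small deletion that puts a stop codon early in the reading frame of *psen2*, which encodes a catalytic subunit of γ-secretase. The mutant fish thus carry 1 line of the allele, and the comparison asks what its presence does to the brain transcriptome. The study concludes that the allele is not null and probably yields Psen2 proteins that lack their N-terminal end. *psen2* counts add both alleles and so do not check the labels: the level ran from 17.8 to 22.6 CPM in the WT fish, from 16.9 to 22.3 CPM in the Het fish and from 16.5 to 21.02 CPM in the Hom fish. The study checked each sample's genotype from separate transcript counts of the wild type and mutant alleles and found it as labelled.

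Genes of this length are mostly intron. RNA polymerase must travel the whole span before a single transcript is complete, and a long series of exons has to be joined over large introns. In vertebrate brains such genes are rich in neuronal adhesion molecules, synaptic proteins, ion channels and receptors, and many of them carry alternative promoters and exons. The long introns vanish on splicing, so that the mature transcript of a very long gene need not be long: its exonic length, which sets how many fragments an RNA-seq library can hold for it, is a separate quantity.

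The 250 genes spanned 250.6 to 870.4 kb (median 313.5 kb; coordinates throughout are those of the gene models on GRCz11 in the count table). Their exonic length ran from 1058 to 27036 bases, with a median of 5569.5 bases against 2614 in the other tested genes, and they had a median of 21 exon blocks against 9. Exons made up a median of 1.61% of the span against 14.2% in the other genes. The long genes were also well expressed. Their median level was 66.9 CPM against 17.5, and per 1 kb of exon it was 11.9 CPM against 6.98. Within a genotype their log2 CPM had a median SD of 0.187, against 0.236 in the other genes. They lay on 25 chromosomes, from 18 genes on chromosome 14 to 5 on chromosomes 2 and 22. In 39 of them a single gap between exons took up most of the span, and exons of 23 overlapped those of another gene on the same strand, which leaves the values of these 23, 11 of them called below, uncertain to that degree.

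Between 11878943 and 17026801 counts were available per fish. The share of counts that fell on mitochondrial rRNA was 17.9% to 26.4% in the WT fish and 31.3% to 35.5% in the mutant fish, so that it moved with the genotype without overlap. Of counts outside mitochondrial rRNA, the long genes held 2.86%, 2.84%, 2.68% and 2.50% in WT fish 79, 86, 88 and 95. The shares were 2.17%, 2.09%, 2.13% and 2.56% in Het fish 80, 81, 84 and 89, and 2.60%, 2.44%, 2.31% and 2.31% in Hom fish 78, 82, 83 and 85. The mean was 2.72% ± 0.168 in WT (SD, n = 4), 2.24% ± 0.217 in Het (n = 4) and 2.42% ± 0.138 in Hom (n = 4). Het fish 89 and Hom fish 78 lay above WT fish 95, so the groups overlapped. Values of single genes are given below in the same order of fish, as CPM scaled by the trimmed mean of M-values over the tested genes, and p-values measure the spread between these fish.

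Among the long genes that were called, lower genes far outnumbered higher ones in the fish with the mutant allele. For the mutant allele (Het and Hom averaged, minus WT), 69 of the 250 long genes were lower and 11 were higher at a false discovery rate (FDR) under 0.05 by edgeR's quasi-likelihood test with Benjamini-Hochberg adjustment over all tested genes, and 170 were not called. Thus 27.6% of the long genes were lower, against 17.4% of all tested genes, and 4.4% were higher, against 16.8%. In either direction 32.0% were called, a share close to the 34.1% of all tested genes. The log2 fold change (logFC) was below 0 in 189 long genes (75.6%, against 48.1%), and its median was -0.17 against 0.02 over all tested genes. All 8 mutant fish lay below all 4 WT fish in 32 long genes (12.8%, against 8.76%) and above them in 5 (2.0%, against 7.66%). The 69 lower genes had logFC of -1.67 to -0.21 (median -0.46), and the 11 higher genes 0.22 to 0.85 (median 0.45). The count of lower genes was 43 without WT fish 79 and 38 without WT fish 86, with medians of -0.16 and -0.12. Calls over all tested genes fell in the same fits, from 2780 lower genes to 1936 and 1790. The count of higher genes was 7 without WT fish 79 or Het fish 81, 5 without WT fish 86 and 6 without WT fish 95. In the same order of fits, higher calls over all tested genes went from 2687 to 1636, 2275, 1598 and 2416. Under each of the 12 fits that leave out 1 fish, 35 of the lower and 5 of the higher genes were called. The matching count over all tested genes was not made.

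The level of the long genes differed between fish of 1 genotype as well. The median deviation of the 250 genes from their own mean over the 12 fish was 0.15, 0.21, 0.10 and 0.001 (log2) in WT fish 79, 86, 88 and 95. It was -0.18, -0.17, 0.02 and 0.02 in Het fish 80, 81, 84 and 89, and 0.07, -0.04, -0.08 and -0.10 in Hom fish 78, 82, 83 and 85. Above their own mean lay 190, 190, 171 and 126 long genes in these WT fish, 39, 42, 138 and 136 in the Het fish and 159, 95, 73 and 45 in the Hom fish. WT fish 95 thus lay within the range of the mutant fish, and Het fish 80 and 81 lay lowest. The 15771 other tested genes had a median deviation between -0.01 and 0.01 in all 12 fish, where the scaling holds it. Genes of 100 to 250 kb lay at 0.14 and 0.16 in WT fish 79 and 86 and at -0.11 and -0.12 in Het fish 80 and 81. Genes under 10 kb went the other way in these fish, at -0.14, -0.15, 0.10 and 0.10. In Het fish 84 genes of 100 to 250 kb were at -0.05, unlike the long genes. WT fish 86 and 79, in which the long genes were highest, also had the lowest shares of mitochondrial rRNA (17.9% and 18.9%). The order was not kept in all fish. WT fish 88 had a greater share than WT fish 95 (26.4% and 23.9%) and a higher level of the long genes (0.10 and 0.001). Het fish 80 and Hom fish 78 both had 32.9%, with levels of -0.18 and 0.07. The study itself reported variable rRNA content after depletion and a correlation of differential expression with it that it could not explain. Its measure need not be the mitochondrial share given here. The study also raised concern over a bias from gene length. The part of rRNA content in the result here was not tested.

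**Figure D1:**
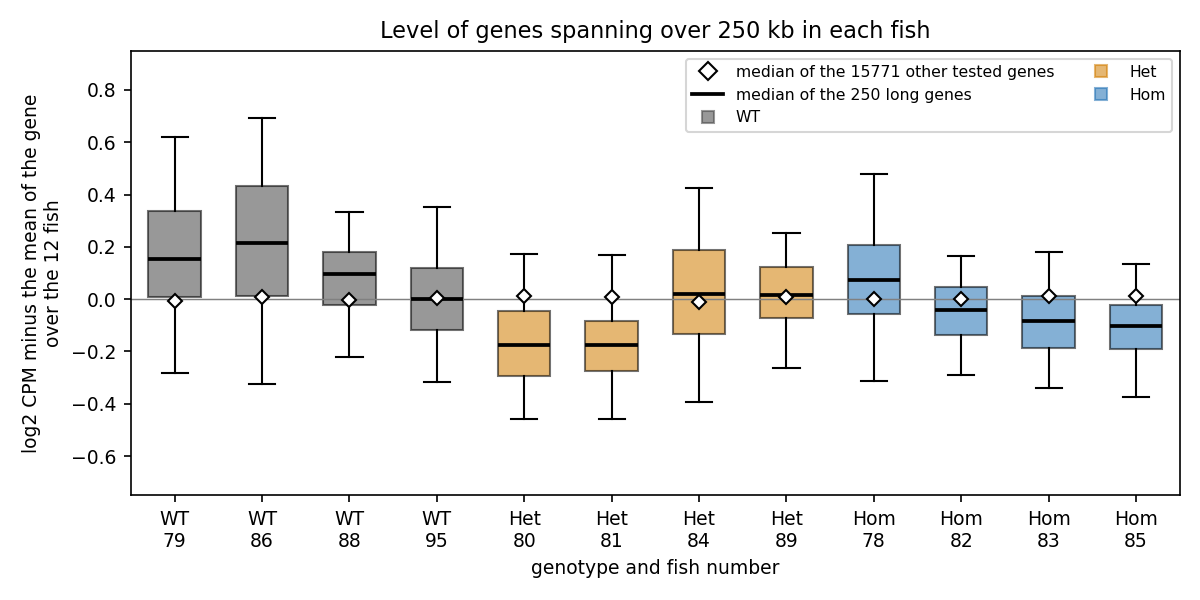
Level of the 250 long genes in each of the 12 fish, as log2 CPM minus the mean of the gene over all fish. Boxes span the quartiles with the median as a black line, and whiskers the 5th to 95th percentile. Diamonds mark the median of the 15771 other tested genes, which the scaling holds near 0. The boxes run from a median of 0.21 in WT fish 86 to -0.18 in Het fish 80.

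The Het and the Hom fish were each compared with the same 4 WT fish, so the results that follow share their controls. In Het against WT, 56 long genes were lower and 8 higher (22.4% and 3.2%, against 14.7% and 15.3% of all tested genes), with a median logFC of -0.18. Both directions together came to 25.6%, against 30.0%. In Hom against WT, 39 were lower and 6 higher (15.6% and 2.4%, against 11.0% and 9.34%), with a median of -0.15, and both directions came to 18%, against 20.3%. Of the 69 genes lower in the mean of both mutant genotypes, 36 were lower in each comparison taken alone, a count not made over all tested genes. The Het count of lower genes was 36 and 33 without Het fish 80 or 81 and 35 and 31 without WT fish 79 or 86, where lower calls over all tested genes went from 2352 to 1787, 1722, 1569 and 1499. The Hom count was 22 and 24 without these WT fish and 24 without Hom fish 82, where those over all tested genes went from 1762 to 844, 910 and 1142. Hom against Het gave no call among the long genes or among all tested genes by edgeR's quasi-likelihood test (0 of 16021), nor any among the long genes by DESeq2 or the likelihood-ratio test, each of which called 9 genes overall. At an unadjusted p under 0.05 there were 607 genes (3.79%), of which 1 was a long gene. That gene was *AGBL4*, which encodes an enzyme that shortens glutamate side chains of tubulin, with 5.60, 5.35, 5.40 and 5.96 CPM in WT, 5.11, 5.19, 4.85 and 6.32 in Het and 7.10, 5.63, 7.44 and 6.68 in Hom. Its Hom minus Het logFC was 0.32 (FDR = 0.989). *SYNE1* was next, with a logFC of 0.21 (FDR = 0.989).

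By kind of gene, 106 of the 250 long genes (42.4%) belonged to 1 of 10 lists of neuronal and regulatory genes drawn up by symbol, against 8.10% of all tested genes. The lists were drawn up with earlier results of these data known, and some of their entries are single genes. Their shares and medians therefore depend in part on that choice. Of these 106, 34 were lower and 5 were higher, and of the other 144, 35 were lower and 6 higher. At 100 to 250 kb, 114 of 326 genes of the lists were lower and 9 higher. Their median logFC was -0.21, against -0.18 in the 106 long genes. Of 854 listed genes of 100 kb and under, 199 were lower and 51 higher (median logFC -0.13). Genes of that span in no list had a median of 0.06. The medians of the long genes by list ranged from -0.59 in transcription factors and chromatin proteins to -0.03 in receptors for glutamate, GABA and glycine. Beyond the genes named for their span, level or p, the examples within each list were chosen after their values were seen.

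**Figure D2:**
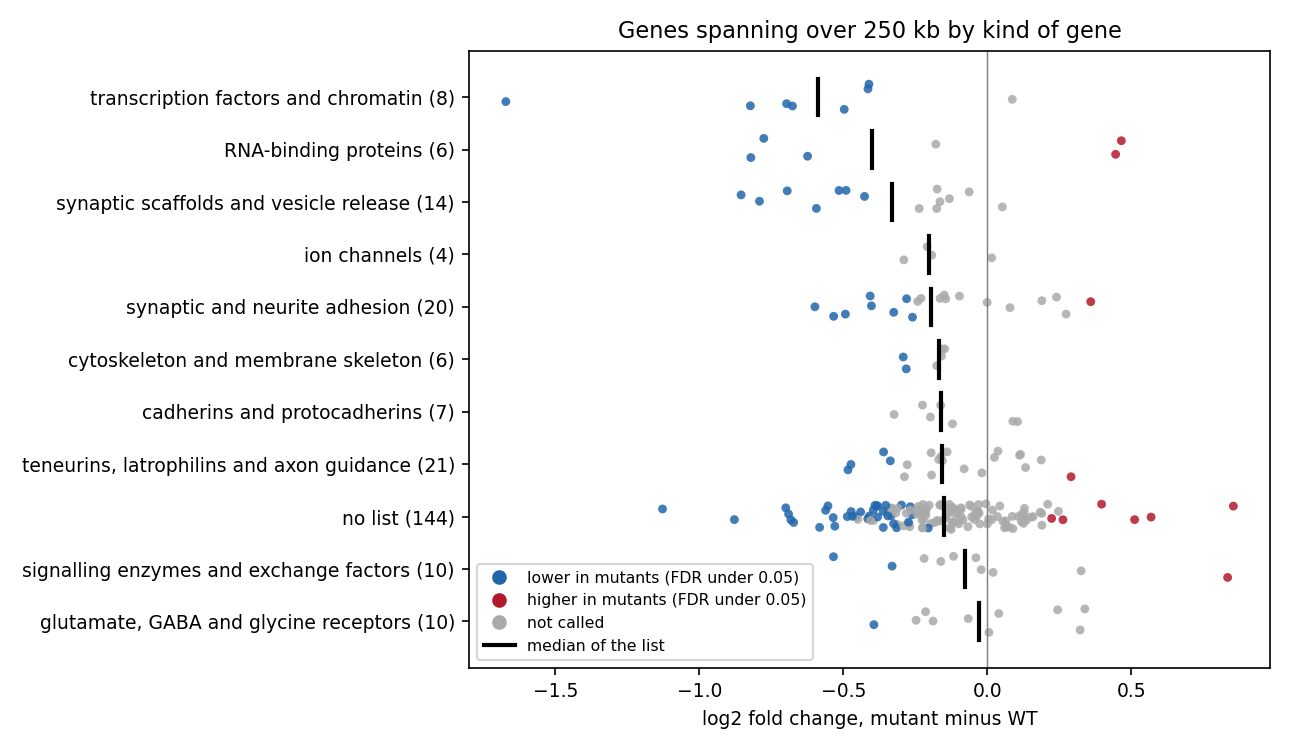
logFC (mutant minus WT) of each of the 250 long genes, 1 point per gene, by list, with the number of genes in brackets and the list's median as a black bar. Blue points are the 69 lower genes and red points the 11 higher genes at FDR under 0.05. On the transcription and chromatin list 7 of the 8 genes are blue. Neither the 7 cadherins nor the 4 genes of the channel list hold a called gene. The called channel gene *ASIC2* is among the genes in no list.

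On the list of transcription factors and chromatin proteins, 7 of 8 long genes were lower (the median of -0.59 stands against -0.17 for all long genes). The eighth, *ZNF536*, had a logFC of 0.09 (FDR = 0.615). *gse1*, *AUTS2* and *supt3h* entered the list by entries for their own names. The list's symbols did not cover every long gene of this kind. *CUX2* and *HDAC4*, both lower, stood outside it. So did both genes named *CAMTA1*, 1 lower (logFC -0.27, FDR = 0.0338) and 1 not called (-0.18, FDR = 0.105). *znf385b*, which encodes a zinc-finger protein (ENSDARG00000006065, chromosome 9: 43243212 to 43538328), changed most of all long genes, with 79.6, 104, 45.6 and 42.5 CPM in WT, 21.8, 19.4, 20.7 and 19.3 in Het and 21.7, 23.4, 24.1 and 20.1 in Hom. The 8 mutant values lay close together below the 4 WT values, which themselves split into WT fish 79 and 86 above and 88 and 95 below. The level was 3.19-fold higher in WT than in mutant fish (logFC -1.67, SE 0.19, FDR = 0.000502). *gse1*, a chromatin-associated protein gene (ENSDARG00000062020, chromosome 18: 30157034 to 30480827), had 236, 270.1, 163 and 181 CPM in WT, 127, 105, 138 and 116 in Het and 136, 123, 100.2 and 116 in Hom. No mutant value reached the lowest WT value (logFC -0.82, SE 0.13, FDR = 0.0012). The other lower genes of the list were *ebf1b* (logFC -0.70), *AUTS2* (-0.68), *foxp1b* (-0.50), *NFIX* (-0.41) and *supt3h* (-0.41). Of these, *AUTS2* encodes a nuclear regulator of neuronal development in mammals and *supt3h* a subunit of the SAGA coactivator. Of the 39 genes of the same list at 100 to 250 kb, 26 were lower and 1 was higher (median logFC -0.49), and of the 247 of 100 kb and under 81 were lower and 6 higher (-0.24).

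RNA-binding proteins moved in both directions. Of 6 long genes, 3 were lower, 2 were higher and *rbfox1*, a neuronal splicing regulator, was not called (logFC -0.18, FDR = 0.0774). *rbfox3a* (ENSDARG00000010083, chromosome 12: 32729470 to 33251465), whose mammalian counterpart is the neuronal nuclear antigen NeuN, had 287, 255, 231 and 229 CPM in WT, 165, 145, 143 and 142 in Het and 105, 145, 164 and 126 in Hom. All 8 mutant values lay below the lowest WT value (logFC -0.82, SE 0.11, FDR = 0.000586). *RBMS3*, which encodes an RNA-binding protein (ENSDARG00000044574, chromosome 16: 39643268 to 39900665), had 35.6, 36.8, 31.4 and 30.9 CPM in WT, 20.8, 21.04, 16.9 and 23.6 in Het and 20.8, 21.1, 25.04 and 25.7 in Hom. The groups did not overlap (logFC -0.62, SE 0.10, FDR = 0.00133). *celf5a*, of the CELF family of splicing and translation regulators, was also lower (logFC -0.78, SE 0.14, FDR = 0.00209). The 2 higher genes were both named *MSI2*, the Musashi protein that binds mRNA in neural progenitors in mammals. For the copy on chromosome 15 (ENSDARG00000032614: 30424645 to 30832897) the values were 64.7, 47.4, 78.3 and 67.8 CPM in WT, 109, 87.8, 78.8 and 89.2 in Het and 86.2, 83.01, 88.5 and 80.9 in Hom. Every mutant fish lay above every WT fish, by a narrow margin between Het fish 84 and WT fish 88 (logFC 0.45, SE 0.12, FDR = 0.0144). The copy on chromosome 10 rose by a like amount (logFC 0.46, SE 0.14, FDR = 0.0217). RNA-binding genes at 100 to 250 kb held 3 lower and no higher ones of 7, and the 20 of 100 kb and under 4 lower and 6 higher.

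Synaptic scaffolds and genes of vesicle release had 7 lower members of 14 and none higher (median logFC -0.33). *magi3b* (ENSDARG00000025974, chromosome 6: 47529881 to 47796989), a membrane-associated guanylate kinase that holds junctional proteins through its PDZ domains, had the smallest p of all long genes, with 146, 146, 123 and 126 CPM in WT, 71.5, 65.9, 78.2 and 78.8 in Het and 75.04, 78.4, 82.6 and 68.6 in Hom. The mutant fish were closely spaced and all well below the WT fish (logFC -0.86, SE 0.08, FDR = 0.000201). *ERC1*, an organiser of the presynaptic active zone (ENSDARG00000076014, chromosome 4: 8213063 to 8515824), had 127, 105, 81.7 and 99.7 CPM in WT, 64.2, 50.9, 44.1 and 63.95 in Het and 60.8, 62.9, 61.4 and 69.1 in Hom. Again the groups stayed apart (logFC -0.79, SE 0.12, FDR = 0.00103). *doc2b*, a calcium sensor of spontaneous and asynchronous release (ENSDARG00000088293, chromosome 5: 60919378 to 61329656), had 35.1, 38.8, 30.1 and 32.3 CPM in WT, 19.2, 20.9, 22.6 and 19.5 in Het and 22.9, 20.6, 20.1 and 22.7 in Hom. No value was shared between the groups (logFC -0.70, SE 0.09, FDR = 0.000516). The other 4 were *iqsec3a* (logFC -0.59), which encodes an exchange factor at inhibitory synapses in mammals, *SYT7* (-0.52), *MAGI2* (-0.49) and the postsynaptic scaffold *SHANK3* (-0.43). *nbeaa*, which acts in receptor traffic, had the highest logFC of the list, 0.05 (FDR = 0.711). Genes of this list at 100 to 250 kb had a like share, 18 lower and none higher of 35 (median logFC -0.33), and the 77 of 100 kb and under had 19 lower and 10 higher (-0.11).

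**Figure D3:**
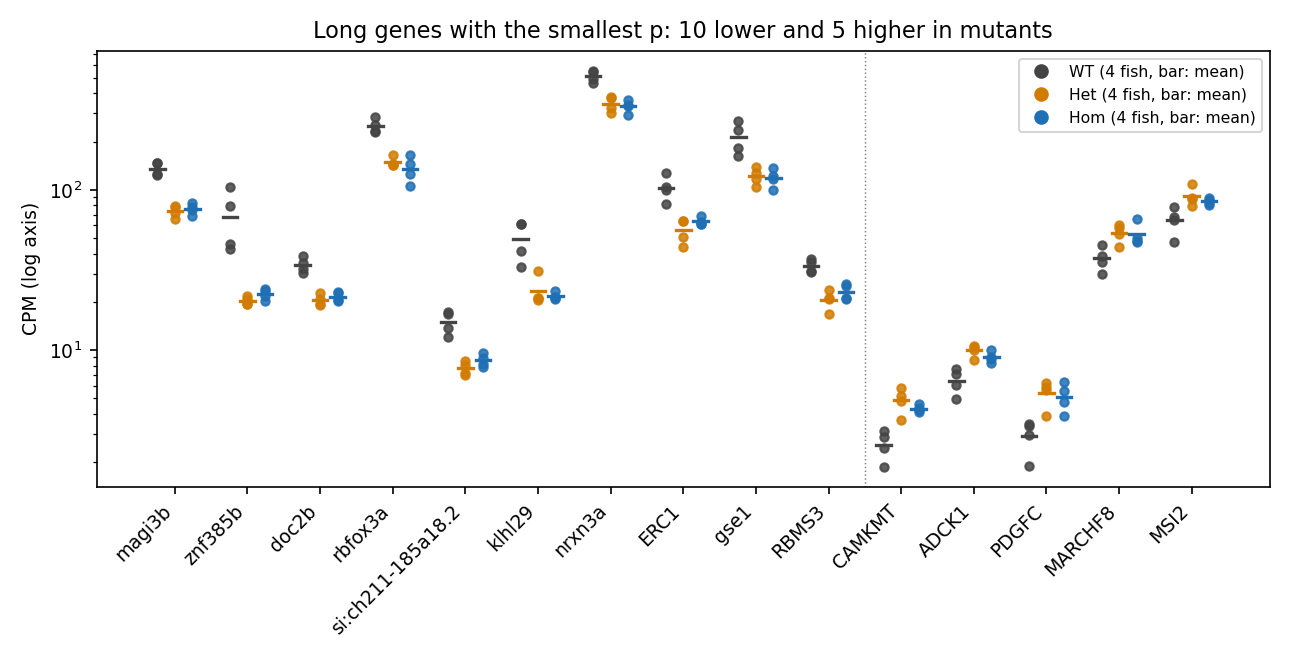
CPM (log axis) of the 10 lower and 5 higher long genes of smallest p, with 1 point per fish and a bar at the mean of each genotype (4 fish each). In the 10 genes left of the dotted line all 8 mutant fish lie below the 4 WT fish; of the 5 to the right, only *MARCHF8* has mutant and WT fish that overlap.

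Adhesion molecules of synapses and neurites held 8 lower and 1 higher among 20 long genes (median logFC -0.20). The neurexins, presynaptic receptors that bind neuroligins across the cleft, were the best represented. *nrxn3a* (ENSDARG00000043746, chromosome 17: 16906523 to 17447902) had 555, 542, 489.9 and 467 CPM in WT, 324, 304, 379 and 375 in Het and 295, 333, 366 and 337 in Hom. All mutant values were below all WT values (logFC -0.60, SE 0.09, FDR = 0.000977). Its paralog *nrxn3b* was lower by less (logFC -0.33, SE 0.11, FDR = 0.0333), and *nrxn2a* was not called (logFC -0.15, FDR = 0.361). *nrxn1a*, the most abundant long gene by mean CPM, had 945, 847, 885 and 834 CPM in WT, 674, 642, 867 and 766 in Het and 769, 697, 696 and 753 in Hom. Het fish 84 lay above WT fish 86 and 95, and the call (logFC -0.26, SE 0.09, FDR = 0.0428) held in 2 of the 12 fits without 1 fish. *NLGN1*, a neuroligin and thus a partner of neurexins, had a logFC of -0.49 (SE 0.16, FDR = 0.0272). *NCAM1*, *ntm* and both genes named *PTPRF*, a receptor phosphatase of synapse formation, made up the remaining lower genes. The 7 cadherins and protocadherins had no called member, with logFC of -0.32 to 0.10. At 100 to 250 kb, 7 of 27 adhesion genes were lower and 1 higher, and 7 of 28 cadherins were lower and none higher. At 100 kb and under, 9 of 42 adhesion genes were lower and 1 higher, and 3 of 44 cadherins were lower and 2 higher.

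Of 21 teneurins, latrophilins and guidance genes, 4 were lower and 1 was higher (median logFC -0.16). The lower genes were *ROBO3* (logFC -0.48, FDR = 0.0071) and *NEO1* (-0.36, FDR = 0.0233), receptors for guidance cues, the latrophilin *ADGRL1* (-0.47, FDR = 0.0308) and *SEMA5B* (-0.34, FDR = 0.0193). The higher one was the copy of *UNC5D*, a netrin receptor family member, on chromosome 5 (logFC 0.29, FDR = 0.0397). *tenm3*, a teneurin that matches neurons to their targets and the fifth most abundant long gene (chromosome 1: 39387876 to 39779913), had 419, 402, 409 and 390.5 CPM in WT, 388, 344, 566 and 489 in Het and 542, 405, 422 and 397 in Hom. Het fish 84 and Hom fish 78 lay highest, and the genotypes overlapped (logFC 0.13, SE 0.13, FDR = 0.457). After correction for exonic length its logFC was 0.34 (FDR = 0.0283). Genes of this list at 100 to 250 kb held 7 lower and 1 higher of 32, and those of 100 kb and under 6 lower and 3 higher of 44.

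Of 10 long genes for glutamate, GABA and glycine receptors 1 was lower and none was higher (median logFC -0.03), against 4 lower and 3 higher of 22 genes of this list with spans of 100 to 250 kb. At 100 kb and under, 7 of 40 receptor genes were lower and 1 higher. The other 9 long genes had logFC of -0.25 to 0.34, the highest in the AMPA receptor subunit *GRIA3* (FDR = 0.0968). The metabotropic GABA receptor subunit *GABBR2*, which the list's symbols did not cover, was lower (logFC -0.49, SE 0.11, FDR = 0.00451). None of the 4 ion channel genes on the channel list was called, against 15 lower and none higher of 46 genes of that list at 100 to 250 kb. At 100 kb and under, 20 of 128 channel genes were lower and 10 higher. The 4 long genes were the calcium channel genes *CACNA1I*, *CACNA1G* and *cacna2d2a* and the potassium channel gene *KCNMA1*, with logFC of -0.29 to 0.01. The channel gene *ASIC2*, which the list's symbols did not cover either, was lower and is described with the longest genes. Of 10 signalling genes, *nrg3b*, a neuregulin ligand (logFC -0.53, FDR = 0.0074), and the Rac activator *DOCK1* (-0.33, FDR = 0.0153) were lower, against 18 lower and 1 higher of 57 at 100 to 250 kb. At 100 kb and under, 28 of 135 signalling genes were lower and 12 higher. The 1 higher long gene of that list, *CAMKMT*, entered it by its symbol and encodes a methyltransferase of calmodulin, not a kinase.

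Large cytoskeletal linkers were abundant, and 2 of the 6 genes of this list were lower (median logFC -0.17). *syne1b* and *SYNE1* (nesprin-1, which ties the nucleus to the cytoskeleton), with 27036 and 26957 exonic bases the long genes of greatest exonic length, had logFC of -0.29 (SE 0.10, FDR = 0.0406) and -0.18 (SE 0.09, FDR = 0.144). For *syne1b* the values were 921, 794, 806 and 761 CPM in WT, 639.5, 603, 562 and 788 in Het and 664, 647, 780.4 and 679.7 in Hom. Het fish 89 and Hom fish 83 lay above WT fish 95, and the call held in 3 of the 12 fits without 1 fish. *SYNE1* had 869, 897, 796 and 768 CPM in WT, 618, 681, 643 and 802 in Het and 855, 787, 765 and 759.5 in Hom. Hom fish 78 and Het fish 89 lay above WT fish 88 and 95. *macf1a*, a linker of actin and microtubules, had 761, 743, 725 and 690.1 CPM in WT, 526, 641, 608 and 736 in Het and 729, 697, 681 and 658 in Hom and was not called (logFC -0.15, FDR = 0.221). *DAB1*, the adaptor of reelin signalling, was lower (logFC -0.28, FDR = 0.0225), and the dystrophin gene *dmd* was not called (-0.16, FDR = 0.192). Cytoskeletal genes of this list at 100 to 250 kb held 9 lower and 2 higher of 33. Those of 100 kb and under held 22 lower and 0 higher of 77 (median logFC -0.17).

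Outside the lists, 144 long genes included 35 lower and 6 higher ones. *klhl29*, a kelch-like gene (ENSDARG00000087688, chromosome 20: 44799375 to 45062514), had 61.4, 60.96, 33.1 and 41.5 CPM in WT, 20.98, 20.5, 31.2 and 21.1 in Het and 21.02, 21.5, 23.3 and 20.9 in Hom. Het fish 84 stood above the other mutants but below the lowest WT fish, and the level was 2.19-fold higher in WT (logFC -1.13, SE 0.16, FDR = 0.000784). *si:ch211-185a18.2* (ENSDARG00000097772, chromosome 17: 11072942 to 11368662) had 16.9, 17.3, 12.1 and 13.6 CPM in WT, 7.15, 6.95, 8.49 and 8.11 in Het and 9.64, 8.21, 7.83 and 8.94 in Hom. The mutant fish were below the WT fish throughout (logFC -0.88, SE 0.12, FDR = 0.00065). *luzp2* carried the highest level per 1 kb of exon of all long genes, 84.5 CPM, and was lower (logFC -0.69, FDR = 0.00148). So were the neuronal homeobox gene *CUX2* (-0.70, FDR = 0.00211), the RNA editing enzyme gene *ADARB1* (-0.53, FDR = 0.00156) and the histone deacetylase gene *HDAC4* (-0.35, FDR = 0.00544). The study's thresholds (Bonferroni-adjusted p under 0.01, or a change of more than 1 in logFC, up or down, at FDR under 0.01) were applied here to quasi-likelihood p-values of counts without its GC and length normalization, in place of its likelihood-ratio test. On that basis, 3 long genes passed, *magi3b*, *znf385b* and *klhl29*, all lower. That is 1.2% of the long genes, against 2.53% of all tested genes in either direction, 1.00% lower and 1.53% higher. The study's own list for the mutant allele, from its normalized counts, held 17 of the 250 long genes. Of these, 14 were among the 69 lower genes here and 0 among the 11 higher, and the rest were not called. The study gives its totals of genes called and tested, over a gene set of its own. How many of these are among the genes tested here was not counted, so no matched share is given.

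The 11 higher genes were fewer and included some of low level. *CAMKMT* (ENSDARG00000095224, chromosome 13: 10360444 to 10620794) had 2.44, 1.86, 2.87 and 3.11 CPM in WT, 4.83, 5.19, 3.64 and 5.79 in Het and 4.09, 4.58, 4.25 and 4.34 in Hom. All mutant fish exceeded all WT fish (logFC 0.83, SE 0.18, FDR = 0.00458). *PDGFC*, which encodes a growth factor (ENSDARG00000077588, chromosome 14: 35567321 to 35853647), had 3.46, 3.34, 2.96 and 1.90 CPM in WT, 5.85, 5.65, 3.86 and 6.23 in Het and 6.33, 4.77, 3.87 and 5.56 in Hom. It was also the 1 called gene among the 5 that did not pass 1.5 CPM in every fish, having done so, over all counts, in 3 WT, 4 Het and 4 Hom fish (logFC 0.85, SE 0.21, FDR = 0.00805). *ADCK1*, a mitochondrial kinase-like gene (ENSDARG00000062561, chromosome 17: 17491226 to 17759220), had 7.64, 4.96, 7.06 and 6.04 CPM in WT, 8.73, 10.7, 10.03 and 10.5 in Het and 8.86, 10.02, 8.99 and 8.33 in Hom. The 8 mutant values all exceeded the 4 WT values (logFC 0.57, SE 0.13, FDR = 0.00613). *MARCHF8*, a membrane-bound ubiquitin ligase gene (ENSDARG00000062489, chromosome 13: 17751866 to 18011208), had 35.6, 29.8, 45.2 and 38.8 CPM in WT, 57.6, 53.3, 43.8 and 60.7 in Het and 65.8, 49.7, 47.3 and 47.7 in Hom. Het fish 84 fell below WT fish 88 here, and Hom fish 78 was the highest (logFC 0.51, SE 0.13, FDR = 0.0114). The remaining higher genes were *cntnap2a*, the second *MSI2*, *UNC5D*, *PTPRN2* (logFC 0.40, FDR = 0.017), *ADK* (0.22, FDR = 0.036) and *TMEM8B* (0.26, FDR = 0.0473), where *PTPRN2* encodes a protein of dense-core vesicles and *ADK* adenosine kinase. The median level of the 11 genes was 34.0 CPM, against 74.2 CPM in the 69 lower genes and 64.9 CPM in the 170 genes not called.

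For the named genes whose groups do not overlap, the exact two-sided permutation p over the fish was 0.00202. That is the smallest that 4 against 8 fish allow, and it adds little to that observation. For *MARCHF8*, whose groups overlap, it was 0.00404, for *nrxn1a* 0.00808, for *syne1b* 0.0202 and for *tenm3* 0.42.

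Among the 250 genes a greater span did not go with a lower logFC. Of the 10 of greatest span, 3 were lower, 1 was higher and 6 were not called. The longest was *sec14l1*, a lipid-binding protein gene of 870.4 kb (chromosome 3: 59411956 to 60282382). A single gap between exons took up 72.5% of its span. It was at 7.43, 6.98, 6.10 and 7.60 CPM in WT, 7.61, 6.95, 9.59 and 3.83 in Het and 4.28, 4.20, 6.57 and 5.99 in Hom. Its genotypes overlapped (logFC -0.21, SE 0.21, FDR = 0.456). *macrod2*, which removes ADP-ribose from proteins and has 1359 exonic bases in a span of 855 kb (chromosome 13: 33703784 to 34558921), had 81.2, 109, 62.6 and 70.5 CPM in WT, 45.5, 48.3, 50.6 and 47.7 in Het and 58.2, 49.4, 47.96 and 55.6 in Hom. The groups stayed apart, with WT fish 86 highest (logFC -0.68, SE 0.12, FDR = 0.00187). *ASIC2*, a proton-gated sodium channel gene of 802 kb, had 84.5% of its span in a single gap between exons. Its values were 73.6, 83.9, 71.9 and 75.4 CPM in WT, 63.03, 56.8, 64.05 and 64.6 in Het and 68.3, 62.3, 61.5 and 55.3 in Hom. No mutant fish reached a WT fish (logFC -0.30, SE 0.08, FDR = 0.0117). *cntnap2a*, of 762 kb, encodes a neurexin-like protein that gathers potassium channels along the axon in mammals, and went the other way, with 102, 101, 155 and 149 CPM in WT, 144, 147, 183 and 174 in Het and 182, 165, 158 and 147 in Hom. WT fish 79 and 86 were low and WT fish 88 and 95 lay among the mutants, and the call (logFC 0.36, SE 0.13, FDR = 0.0499) held in 3 of the 12 fits without 1 fish. Of the rest, *CSMD3*, *DUSP19*, *GRID1* on chromosome 12, *nrxn2a* and *DIAPH2* had logFC of -0.15 to -0.07 with FDR of 0.271 to 0.699. Over all 250 genes, span and logFC were nearly unrelated (Spearman's rho = -0.02 across genes, which share the same 12 libraries and are not replicates), as were exonic length and logFC (0.05) and mean CPM and logFC (-0.11).

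Just inside the limit of 250000 bases lay *FAM184A* (250.6 kb, logFC -0.47), *SNX29* (250.9 kb, -0.13) and *dmd* (251.1 kb, -0.16). Just outside lay ENSDARG00000094454 (249631 bases, -0.43), the calcium channel gene *CACNA1B* (249614 bases, -0.47) and *fras1* (249340 bases, -0.12). The ranges on both sides of the limit overlapped. The 1 long gene with no symbol, ENSDARG00000098856, had a logFC of -0.13 (FDR = 0.386).

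Genomic span and exonic length go together over the genome, so each was looked at with the other held within a class. Spearman's rho between them was 0.58 across 15741 tested nuclear genes outside the *psen2* window. In these genes the median logFC went from 0.17 in spans under 10 kb through 0.02 (10 to 50 kb), -0.07 (50 to 100 kb) and -0.12 (100 to 250 kb) to -0.17 in the long genes. The share lower rose along the same classes from 10.4% to 27.6%, and the share higher fell from 26.2% to 4.4%. The long genes were therefore the end of a gradient that the 1292 genes of 100 to 250 kb, with 26.6% lower and 5.19% higher, nearly reached. Within exonic length classes the long genes kept a negative median: -0.19 at 1000 to 2000 bases (14 genes), -0.20 at 2000 to 4000 bases (60 genes), -0.16 at 4000 to 8000 bases (117 genes) and -0.16 at 8000 bases and over (59 genes). Genes under 10 kb had medians of 0.17, 0.12 and 0.02 in the first 3 of these classes. Among transcripts of 8000 bases and over, in contrast, genes of only 10 to 50 kb had a median of -0.16 as well (215 genes), the same as in the long genes. In a joint description over the 15741 genes, logFC fell by 0.06 for each doubling of span at a given exonic length, and by 0.03 for each doubling of exonic length at a given span.

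**Figure D4:**
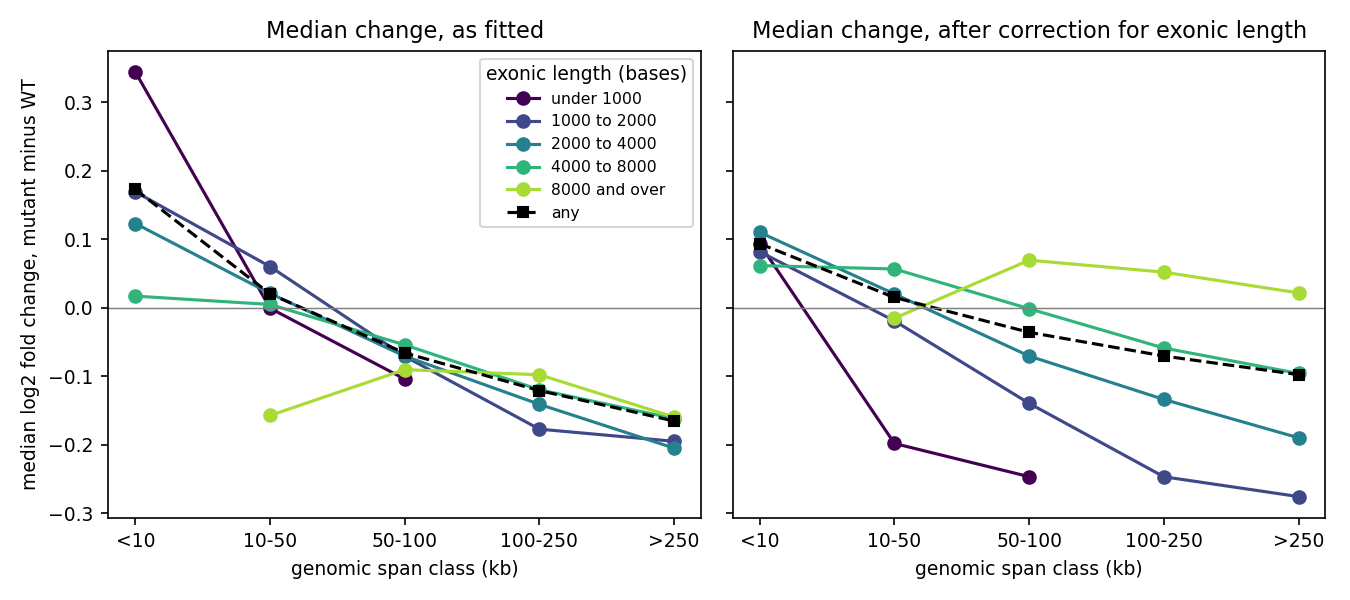
Median logFC (mutant minus WT) by genomic span class, with 1 line per class of exonic length and a dashed line for all lengths, as fitted (left) and after the correction for exonic length (right). Classes of fewer than 14 genes are not drawn. The lines fall with span in each exonic length class except that of 8000 bases and over, which starts at -0.16 as fitted and at -0.02 after the correction.

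The same joint description was made for each fish. The deviation of a gene from its mean over the fish changed by 0.05, 0.07, 0.02 and 0.01 (log2) per doubling of span in WT fish 79, 86, 88 and 95. It changed by -0.04, -0.02, -0.03 and -0.003 in Het fish 80, 81, 84 and 89, and by 0.004, -0.01, -0.02 and -0.02 in Hom fish 78, 82, 83 and 85. All 4 WT values were above all 8 mutant values. Per doubling of exonic length the values overlapped, from -0.01 to 0.04 over the WT fish, from -0.09 to 0.004 over the Het fish and from -0.01 to 0.03 over the Hom fish.

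A correction for exonic length alone was also tried. For it, a smooth curve of each fish's deviations on exonic length, over all tested genes, was taken out before the fit. With it, 57 long genes were lower and 15 higher (22.8% and 6.0%), against 2821 and 2577 of all 16021 tested genes. The median logFC was -0.10, against 0.01 over all tested genes. The call was kept by 56 of the 69 lower and all 11 of the higher genes. In the joint description after the correction, logFC still fell by 0.05 per doubling of span at a given exonic length, while the slope on exonic length at a given span went from -0.03 to 0.06, so that the correction overshot at a given span. The effect of the correction depended on exonic length. In the 84 long genes of least exonic length (1058 to 4247 bases) the median logFC was -0.20 before and -0.20 after it, in the 83 of middle length -0.16 and -0.11, and in the 83 of greatest length (7180 to 27036 bases) -0.16 and -0.01. In the last group 21 genes were lower before the correction and 12 after it. *nrxn1a* went from a logFC of -0.26 to -0.08 (FDR = 0.501) and *syne1b* from -0.29 to 0.001 (FDR = 0.992). *CSMD3*, *SYNE1*, *macf1a*, *dmd* and ENSDARG00000098856, none of them called, turned from below 0 to above it. In contrast, *magi3b*, *znf385b*, *doc2b* and *klhl29* had corrected logFC of -0.81, -1.73, -0.70 and -1.13. *nrxn3a*, with 10405 exonic bases, kept its call at -0.43 (FDR = 0.00338).

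**Figure D5:**
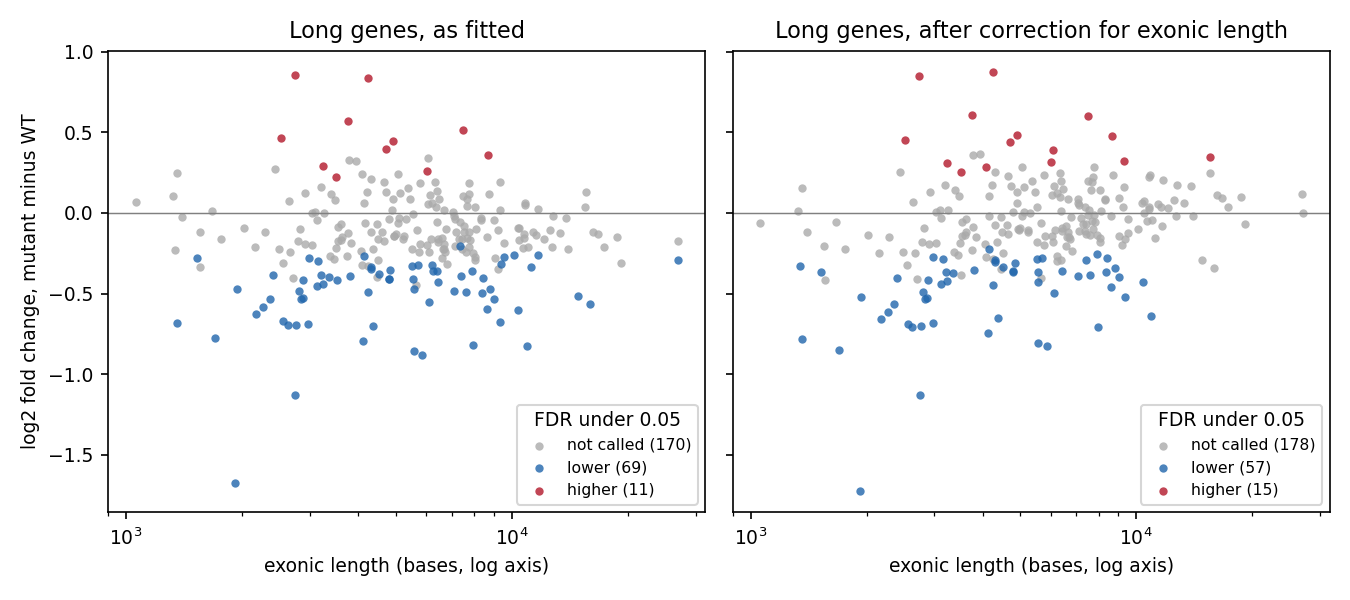
logFC (mutant minus WT) of the 250 long genes against exonic length (log axis), as fitted (left) and after the correction for exonic length (right), 1 point per gene. Lower genes (blue) go from 69 to 57 and higher genes (red) from 11 to 15, and the blue points lost lie mostly among the long transcripts on the right.

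The lower genes were not those of greatest exonic length. Their median exonic length was 4797 bases, against 6076 in the genes not called and 4247 in the higher genes. Their median span was 323.8 kb, against 313.1 and 281.2 kb. Per 1 kb of exon their median level was 17.1 CPM, against 10.7 and 7.41 CPM. The median logFC of the long genes was below 0 on each of the 25 chromosomes, from -0.41 on chromosome 18 (8 genes, 5 lower) to -0.03 on chromosome 24 (6 genes, 1 lower and 1 higher).

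Teleosts carry pairs of genes from an ancient duplication of their genome, and 18 names were shared by a pair of long genes. Both members of the *PTPRF* pair were lower (logFC -0.40 and -0.53), and both of the *MSI2* pair were higher. In 4 pairs 1 member was called: *CAMTA1*, *KLHL29*, *MAGI3* and *UNC5D*. The widest gaps were in *KLHL29*, with -1.13 in *klhl29* beside -0.45 in the other copy (FDR = 0.0878), and in *MAGI3*, with -0.86 in *magi3b* beside -0.24 (FDR = 0.0978). In 12 pairs neither gene was called, and in none did the calls go in opposite directions. The signs of logFC differed in 9 of the 18 pairs, with a median difference of 0.15 within a pair. The widest gap among these 9 was in *GRM8*, a metabotropic glutamate receptor gene, with 0.32 (FDR = 0.077) and -0.21 (FDR = 0.157). Reads from near-identical stretches of such copies could not be told apart, and differences within pairs were not tested.

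In RNA from whole brain, fewer cells of a type and less RNA per cell cannot be told apart. Of 17 tested neuronal marker genes, which include *rbfox3a*, 5 were lower and 2 were higher (median logFC -0.02), and their summed level was 8051 to 8948 CPM in the WT fish, 7261 to 8790 CPM in the Het fish and 8144 to 8834 CPM in the Hom fish. Of 7 radial glia markers none was lower and 4 were higher (2724 to 3424, 3573 to 4225 and 3359 to 3977 CPM). Of 9 oligodendrocyte markers 1 was lower and 4 were higher (7873 to 12684, 9228 to 11923 and 9744 to 16415 CPM), and of 7 microglia markers 1 was lower and 1 higher (365 to 505, 502 to 621 and 470 to 572 CPM). Of 5 markers of endothelium and blood 1 was higher (138 to 179, 155 to 240.2 and 157 to 217 CPM). None of 4 markers of muscle and skin was called, and their sum was uneven among the fish (64.9 to 85.3, 10.2 to 144 and 62.2 to 725 CPM). No marker was at 0. The glial sums thus moved with the genotype in part, and their part in the lower level of the long genes was not tested.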

How the data were processed

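Whole-brain RNA-seq libraries of 12 fish were used. Per the labels and the study's methods, the authors trimmed reads with cutadapt 1.14, aligned them to GRCz11 with STAR 2.7.0d and counted strictly exonic, unique, reverse-strand alignments (mapping quality of at least 10) against Ensembl release 98 with featureCounts of Subread 1.5.2. The deposited values are raw counts per gene. The authors' normalization for GC content and length is not part of them, and GC content was not analysed here. Genes above 1.5 CPM in at least 4 fish, without mitochondrial rRNA, were fitted as 3 genotypes with edgeR 4.0.16 in R 4.3.3 (TMM, quasi-likelihood test, Benjamini-Hochberg adjustment), in place of the likelihood-ratio test of the study, which was run as an alternative. The mutant effect is the average of both mutant genotypes less WT, and differences are log2. The exonic length correction entered as offsets from lowess curves (fraction 0.2).

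Named genes were the 10 of greatest span, the 10 lower and 5 higher of smallest p, the 5 most abundant, 3 on each side of the span limit and 2 for Hom against Het. Values of 1 gene that the rule names are not reported here. Other genes were chosen after their values were seen. The members, lists and rules were chosen with earlier results of these data known. Names came from a table matched by gene ID (90.4% of 32057 IDs), and 249 of the 250 long genes had a symbol. Symbols in capitals are names of that table. The fits were tried on simulated counts in which few genes changed and no change followed length. That trial did not test how the correction acts on a trend with exonic length.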

Additional observations from a re-analysis of the deposited data

Results flagged for a closer look

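In 5 of 111 groups of 4 fish examined for the named long genes, 1 fish stood far from the other 3 relative to the range of the group, and chance alone gives about 1 such group in 20. *rbfox3a* was at 165 CPM in Het fish 80, with the other Het fish at 142 to 145 CPM. *klhl29* was at 31.2 CPM in Het fish 84, with the others at 20.5 to 21.1 CPM. *dmd* was at 67.5 CPM in Het fish 89, with the others at 56.8 to 57.3 CPM. Hom fish 78 was the high one in both Hom groups concerned: *MARCHF8* was at 65.8 CPM there, against 47.3 to 49.7 CPM, and *tenm3* at 542 CPM, against 397 to 422 CPM.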

How the results depend on the processing

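No paired analysis was possible because each fish number occurs in 1 genotype only. Leaving out 1 fish at a time gave 38 to 89 lower and 5 to 14 higher long genes for the mutant allele (median logFC -0.20 to -0.12), 31 to 68 and 4 to 10 for Het (-0.22 to -0.14), and 22 to 53 and 0 to 9 for Hom (-0.21 to -0.11). For Hom against Het it gave 0 and 0, with a median logFC of -0.01 to 0.06. Over all 16021 tested genes these fits gave 1790 to 3044 lower and 1598 to 2912 higher genes for the mutant allele. The ranges were 1499 to 2690 and 1550 to 2739 for Het, and 844 to 2156 and 648 to 1970 for Hom. With no filter on low counts there were 7 higher genes for the mutant allele and 3 for Hom, against 2411 and 1167 of all 25857 genes. With the correction for exonic length the median logFC was -0.10 for the mutant allele and -0.082 for Het. In Het 14 genes were then higher, against 2300 of all tested genes. *CSMD3* (0.055), *SYNE1* (0.12), *syne1b* (0.0015), *macf1a* (0.10), *dmd* (0.033) and ENSDARG00000098856 (0.095) then had a logFC above 0. A span over 200000 bases takes in 438 genes, with 123 lower and 19 higher for the mutant allele, 103 lower for Het and 71 lower for Hom. A span over 500000 bases takes in 27: 8 lower and 1 higher for the mutant allele, 7 and 0 for Het, 6 and 0 for Hom. The mutant minus WT difference in the share of counts was -0.394 percentage points, and -0.574 over all counts, mitochondrial rRNA included. *nrxn2a* was called without Het fish 84 (logFC -0.24). DESeq2 gave 76 lower and 12 higher genes, the likelihood-ratio test 70 and 9, and upper-quartile scaling 67 and 12. Over all tested genes the same settings gave 2966 and 2903, 2789 and 2772, and 2604 and 2808. Among alternatives chosen after seeing the data, the 211 genes without a gap over most of the span gave 55 and 10, and the 214 with an unshared name 64 and 8. Depth limits the long genes of lowest level, whose lowest count in a fish was 12.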
